A study of Rattus norvegicus with 20 samples.

Results

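The genes described here encode 10 receptors through which hepatocytes sense foreign compounds and metabolites: Nr1i2 (PXR), Nr1i3 (CAR), Ahr (AhR), Nr1h4 (FXR), Nr1h3 (LXR-alpha), Ppara (PPAR-alpha), Rxra (RXR-alpha), Hnf4a (HNF4A), Nr0b2 (SHP) and Nr5a2 (LRH-1). They were taken by name, as the receptors themselves and not the genes they regulate. All 10 were measured, by 15 of the 20826 probe sets with 1 gene symbol, among 14217 genes in all. The rats were males of the Harlan Sprague Dawley strain, 20 in all, with 1 liver array each, and were dosed by gavage with tricresyl phosphate (TCP), an organophosphate ester found in hydraulic fluids and plastics. All rats received corn oil as the vehicle on 4 consecutive days: corn oil alone in the control group (n = 5), or with TCP at 62.3, 124.5, 248.6, 497.3 or 994.6 mg/kg (n = 3 each). Their age is not stated in the labels. The tissue was a piece of the left liver lobe with all its cell types, and in such bulk RNA fewer cells of a type and less RNA per cell cannot be told apart. The hepatocyte markers Alb, Apoa1, Ttr, Ahsg, Serpina1 and Hpx had means between percentiles 99.7 and 100 of all genes.

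Nuclear receptors are transcription factors, and the activity of many of them is set by a bound ligand. The amount of their transcript and the activity of the protein can therefore differ. PXR and CAR bind or respond to many drugs and industrial chemicals and induce cytochrome P450 enzymes and transporters, while AhR, which belongs to another protein family, responds to planar aromatic compounds. FXR senses bile acids, LXR-alpha oxysterols and PPAR-alpha fatty acids, and each of these, like PXR and CAR, binds DNA together with RXR-alpha. HNF4A and LRH-1 maintain the hepatocyte programme, and SHP, which lacks a DNA-binding domain and is induced by FXR, represses LRH-1 and HNF4A at genes of bile acid synthesis.

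The 250 bases before the start of Nr0b2 and of Nr1i2 are shown because the former varied most between rats and the latter was called at the highest dose. They are from RefSeq on GRCr8, on the + strand, at chr5:151062910-151063159 for Nr0b2 and chr11:75965467-75965716 for Nr1i2. Capitals mark TCAAGG, the core bound by NR5A receptors such as LRH-1.
Nr0b2: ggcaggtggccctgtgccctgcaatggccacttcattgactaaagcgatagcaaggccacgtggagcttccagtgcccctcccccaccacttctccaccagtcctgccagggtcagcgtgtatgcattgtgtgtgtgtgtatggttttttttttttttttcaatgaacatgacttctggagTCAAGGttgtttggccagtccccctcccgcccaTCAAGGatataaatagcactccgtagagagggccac
Nr1i2: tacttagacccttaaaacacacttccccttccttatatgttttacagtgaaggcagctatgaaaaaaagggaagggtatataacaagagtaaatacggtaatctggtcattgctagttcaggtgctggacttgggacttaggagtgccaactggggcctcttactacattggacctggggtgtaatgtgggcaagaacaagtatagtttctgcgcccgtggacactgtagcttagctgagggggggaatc
TCAAGG and AGGTCA, the core bound by many nuclear receptors, were searched on both strands in the promoters of 9 of the 10 genes, with 10 entries since Hnf4a has 2 starts. The Nr0b2 promoter held 2 TCAAGG matches on its own strand, beginning 69 and 36 bases before the start. At least 1 TCAAGG was present in 12.6% of 33469 promoters, and 2 or more in 0.98%. The Ahr promoter held 1 TCAAGG on the opposite strand, and the promoter of Nr5a2 held 1 AGGTCA, which 14.1% of promoters contain. The Nr1i2 window held neither set of letters. These matches describe the sequence and were not tested as binding sites.

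The comparison of each dose with control asked whether the receptors' own transcripts changed with TCP. At 994.6 mg/kg, Nr1i2 fell to 0.704-fold of control, and none of the other 9 receptor transcripts passed the test. Calls were made at an adjusted p under 0.05 (Benjamini-Hochberg, over all genes) in limma, a linear model that shares variance information across genes. At this dose 1 of 10 receptors was called, against 4.47% of all genes (1.96% as lower), and 2 of 10 had an unadjusted p under 0.05 (Nr1i2 and Hnf4a), against 18.6%. No receptor was called at 62.3 mg/kg (0% of all genes called), 124.5 mg/kg (0.00703%), 248.6 mg/kg (0.0563%) or 497.3 mg/kg (0.732%), and 0 of 10 had an unadjusted p under 0.05 at any of these 4 doses, against 2.45%, 5.04%, 6.65% and 12.2% of all genes. The median size of the change at 994.6 mg/kg was 0.18 on the log2 scale over the receptors and 0.11 over all genes. Most receptors also varied more between rats of a group than the median gene, and the part of this in these sizes was not tested. Of the 10 changes 7 were negative, and the median change over all genes was -0.01. Over the slope on dose step, where control is step 0 and 994.6 mg/kg is step 5, 1 receptor was called (Nr1i2, lower; 6.47% of all genes called, 2.57% as lower), and 2 had an unadjusted p under 0.05, against 20.7% of all genes. Among the 15 treated arrays alone the slope called 0 of 10 receptors (0.218% of all genes), with 3 at an unadjusted p under 0.05 (10.6% of all genes). The test for any difference among the 6 groups also called 0 (0.816% of all genes), with 1 at an unadjusted p under 0.05 (10.2% of all genes). Between neighbouring doses limma called 0 of 10 receptors at each of the 4 steps, in order of dose against 0%, 0%, 0.00703% and 0.0211% of all genes, and 1, 0, 0 and 1 had an unadjusted p under 0.05, against 2.1%, 2.41%, 4.49% and 7.61%. The mean of all doses against control called 0 of 10 (0.703% of all genes), with 0 at an unadjusted p under 0.05 (12.9% of all genes).

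**Figure D1:**
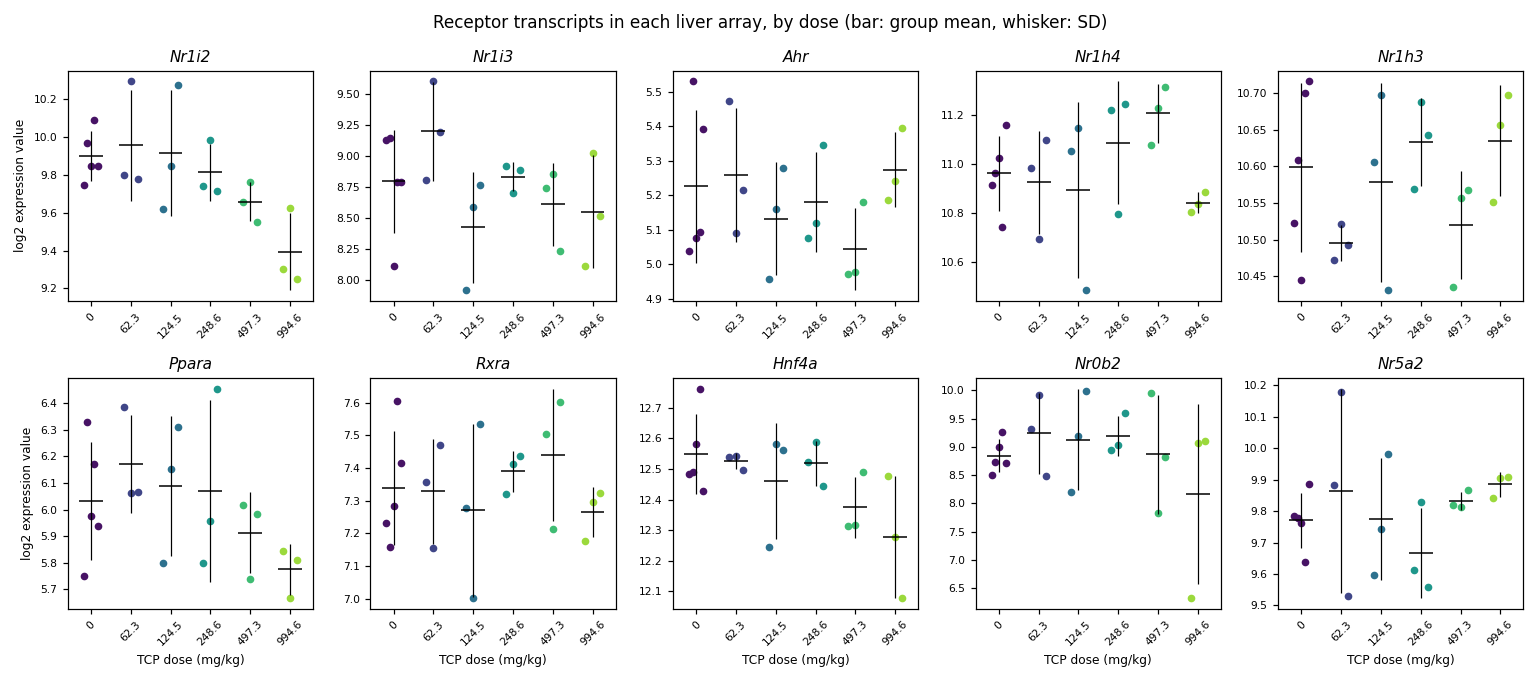
Log2 expression value of each receptor transcript (vertical axis, scaled separately in each panel) in each liver array by TCP dose in mg/kg (0 is corn oil). Points are arrays, bars group means and whiskers the SD (control n = 5, each dose n = 3). The 3 arrays of Nr1i2 at 994.6 mg/kg lie below all 5 control arrays, and 1 array of Nr0b2 at 994.6 mg/kg lies at 6.33.

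Nr1i2 encodes PXR, the main sensor of lipophilic drugs and steroids. Its log2 values in the control arrays were 9.75, 9.97, 9.85, 10.09 and 9.85. At 994.6 mg/kg they were 9.31, 9.63 and 9.25. The highest of the treated arrays lay below the lowest control, and this was the only receptor and dose for which the groups did not overlap, in either direction (14% of all genes at this dose, 7.12% as lower). At the lower doses 0 of 10 receptors lay beyond all controls, against 2.76%, 3.5%, 7.32% and 10% of all genes in order of dose. The change was -0.51 ± 0.14 (log2, SE; 95% interval -0.80 to -0.21; adjusted p = 0.0482). At 497.3 mg/kg the arrays read 9.66, 9.76 and 9.55, with the highest of these within the control range, and the change was -0.24 (adjusted p = 0.52). Group means at 62.3, 124.5 and 248.6 mg/kg were 9.96 ± 0.29, 9.92 ± 0.33 and 9.81 ± 0.15 (SD, n = 3 each), which overlapped the control mean of 9.90 ± 0.13 (SD, n = 5). The means ran downward in dose order from 62.3 mg/kg, but no step between neighbouring doses was called for Nr1i2. The slope was -0.092 ± 0.025 per dose step over all 20 arrays (adjusted p = 0.0268) and -0.14 ± 0.04 over the 15 treated arrays (adjusted p = 0.112).

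The call of Nr1i2 at 994.6 mg/kg lay close to its threshold. It was lost when any 1 of the 5 control arrays was left out, and likewise without any array of 248.6 or 497.3 mg/kg, replicate 1 of 62.3 mg/kg, or replicate 1 or 3 of 994.6 mg/kg. The largest of these adjusted p-values was 0.222, without replicate 1 of 994.6 mg/kg, where the change was -0.46, and over all 20 left-out arrays the change stayed between -0.62 and -0.43. The slope over all arrays lost its call when control replicate 4, or replicate 1 or 3 of 994.6 mg/kg, was left out (highest adjusted p = 0.0849). Replicate 1 of 994.6 mg/kg stood apart from the other arrays over all genes, at 37.1 on the first principal component (20.1% of the variance) where the other arrays lay between -14.1 and 9.14. GAPDH was also read at its 3' and at its 5' end, and the 3' minus 5' difference, a sign of RNA or labelling quality, was 1.13 to 1.56 in control arrays, 2.58 in replicate 2 of 124.5 mg/kg and 0.612 to 1.11 in the other treated arrays. With that difference as a covariate Nr1i2 changed by -0.50 at 994.6 mg/kg (adjusted p = 0.106), and no receptor was called there or in the slope over all arrays. Apart from replicate 2 of 124.5 mg/kg, control and treated arrays did not overlap in the GAPDH difference. This fit can therefore hardly tell the GAPDH difference and treatment apart. Of the red blood cell markers, 4 of 5 were called as lower at 994.6 mg/kg (1.96% of all genes), and 0 of 5 changed upward. Their mean level lay between 7.58 and 8.58 at that dose, against 9.24 to 9.38 in control. The part of these markers in the result was not tested.

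Nr1i3 encodes CAR, which in hepatocytes is held in the cytoplasm and moves to the nucleus when activated. Its control arrays read 9.13, 9.15, 8.11, 8.79 and 8.79, and those at 994.6 mg/kg 8.11, 9.02 and 8.52, so that the groups overlapped over nearly their whole range. The change was -0.24 ± 0.25 (adjusted p = 0.673), and over the 5 doses the 95% intervals ran from -0.90 to 0.93. Between 62.3 and 124.5 mg/kg the mean differed by -0.78 ± 0.28 (unadjusted p = 0.0118, adjusted p = 1.0), in a comparison where no gene was called. Ahr, a cytosolic receptor until it binds a ligand, read 5.04, 5.53, 5.08, 5.09 and 5.39 in control and 5.19, 5.24 and 5.39 at 994.6 mg/kg. All 3 treated arrays lay inside the control range, and the change was 0.05 ± 0.12 (adjusted p = 0.886). The Ahr mean of 5.19 lay below the median of every array (6.31 to 6.41), so its signal was low.

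The sensors of bile acids and oxysterols did not pass the test at any dose. Nr1h4 (FXR) read 10.92, 10.97, 11.03, 10.75 and 11.16 in control and 10.80, 10.84 and 10.89 at 994.6 mg/kg, with a change of -0.12 ± 0.14 (adjusted p = 0.726). The 3 arrays at 497.3 mg/kg read 11.08, 11.23 and 11.31. The step from there to 994.6 mg/kg was -0.36 ± 0.16, with an unadjusted p of 0.0317 and an adjusted p of 0.597 in limma. At this step 7.61% of all genes had an unadjusted p under 0.05. Nr1h3 (LXR-alpha) was the steadiest of the receptors: its 20 arrays lay between 10.43 and 10.72. Its change at 994.6 mg/kg was 0.04 ± 0.08 (adjusted p = 0.864), and the 95% intervals over all 5 doses ran from -0.27 to 0.20, a fold of 0.83 to 1.15.

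Ppara, the fatty acid sensor that drives peroxisomal and mitochondrial oxidation, read 5.75, 6.33, 5.98, 6.17 and 5.94 in control. At 994.6 mg/kg it read 5.85, 5.67 and 5.81, of which 1 array lay below all controls. The change was -0.26 ± 0.15 (adjusted p = 0.387). The Ppara mean of 6.01 also lay below the median of every array (6.31 to 6.41). Rxra, the shared partner, changed by -0.07 ± 0.12 at 994.6 mg/kg (adjusted p = 0.816), with 95% intervals of -0.33 to 0.35 over the 5 doses. Its arrays at 994.6 mg/kg, at 7.18, 7.29 and 7.32, lay within the control range of 7.16 to 7.60.

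Hnf4a, the receptor that maintains hepatocyte identity, read 12.48, 12.49, 12.58, 12.76 and 12.43 in control. At 994.6 mg/kg it read 12.48, 12.28 and 12.08, so that 2 of 3 arrays lay below every control and the groups overlapped through replicate 1. The change was -0.27 ± 0.10 (95% interval -0.48 to -0.06; adjusted p = 0.132), and the slope over all arrays -0.048 ± 0.016 per step (adjusted p = 0.0761). Control had the highest group mean (12.55 ± 0.13, SD, n = 5) and 994.6 mg/kg the lowest (12.28 ± 0.20, SD, n = 3). At every dose the values overlapped those of control. These values are of 1 probe set, and the gene's other probe sets changed by 0.10 ± 0.16 and 0.18 ± 0.18 at 994.6 mg/kg.

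Nr0b2, which encodes the repressor SHP, varied most from rat to rat. Its control arrays read 8.50, 8.74, 9.004, 9.27 and 8.72. At 497.3 mg/kg they read 9.95, 7.84 and 8.81, and at 994.6 mg/kg 6.33, 9.06 and 9.10. Replicate 1 of 994.6 mg/kg was the lowest of all 20 arrays, while the other arrays of that dose lay inside the control range. The change was -0.68 ± 0.55 (adjusted p = 0.568) with that array and 0.24 without it (adjusted p = 0.916). The 95% intervals over the 5 doses ran from -1.83 to 1.54, a fold of 0.281 to 2.91.

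**Figure D2:**
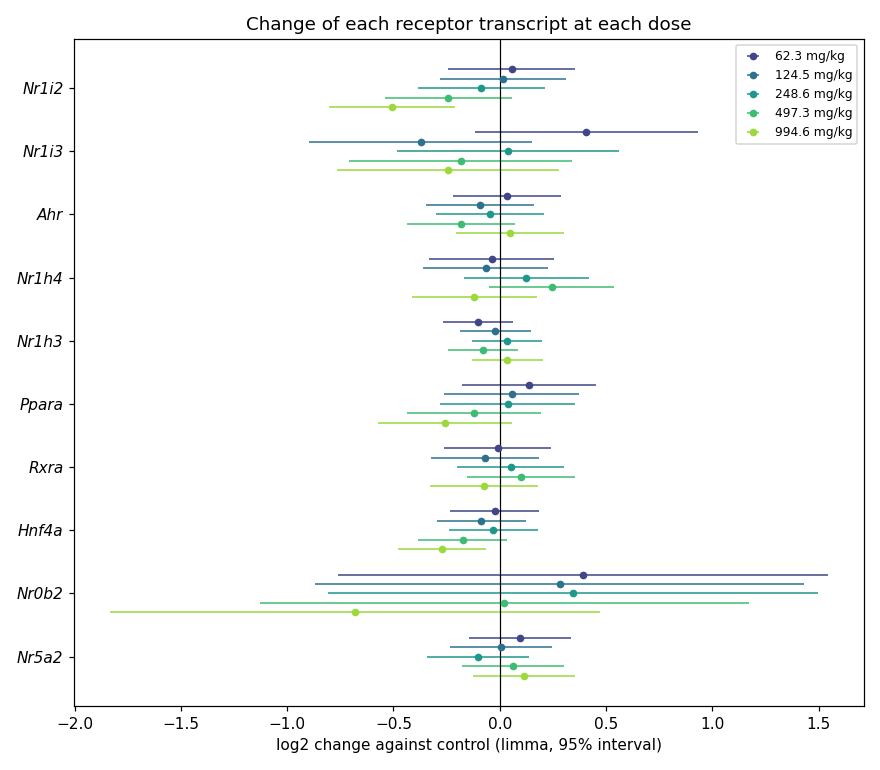
Log2 change of each receptor transcript against control (horizontal axis) at each of the 5 TCP doses in mg/kg, in limma. Points are estimates and lines 95% intervals; the line at 0 is no change. The Nr1i2 interval at 994.6 mg/kg runs from -0.80 to -0.21 and that of Nr0b2 from -1.83 to 0.47.

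Nr5a2 encodes LRH-1, which activates genes of bile acid synthesis and reverse cholesterol transport. The probe set that represents it, 1390965_at, read 9.78, 9.78, 9.76, 9.64 and 9.89 in control and 9.84, 9.91 and 9.91 at 994.6 mg/kg (0.11 ± 0.11, adjusted p = 0.663). A probe set is a group of short probes for 1 stretch of transcript, and 3 of the receptors have more than 1. The rows of the 20826 probe sets were fitted together for these, with 3.46% of them called at 994.6 mg/kg and 5.09% in the slope over all arrays (3.09% as higher). Of the 5 probe sets that do not represent their gene, 0 were called at 994.6 mg/kg and 1 in the slope, Nr5a2 1384835_at, higher by 0.086 ± 0.021 per dose step (adjusted p = 0.0199).

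Nr5a2 1384835_at read 7.34, 7.23, 7.40, 7.41 and 7.34 in control. It read 7.62, 7.51 and 7.45 at 248.6 mg/kg, 7.84, 7.54 and 7.85 at 497.3 mg/kg and 7.99, 7.72 and 7.67 at 994.6 mg/kg. At these 3 doses every array lay above all 5 controls, as did 4.2%, 5.35% and 6.53% of all probe sets. At 124.5 mg/kg the arrays read 7.61, 7.07 and 7.84, and the low one is the array with the GAPDH difference of 2.58. The change at 994.6 mg/kg was 0.45 ± 0.13 (adjusted p = 0.0657). Its slope was not called without replicate 1 of 994.6 mg/kg (0.075 per step, adjusted p = 0.0667) or with the GAPDH difference as a covariate (0.046, adjusted p = 0.146).

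The third Nr5a2 probe set, 1387573_a_at, changed by 0.66 ± 0.26 at 994.6 mg/kg (adjusted p = 0.191), with 1 of 3 arrays inside the control range of 5.23 to 5.94. Over the 20 arrays the values of 1384835_at and 1387573_a_at had a Pearson r of 0.80 with each other, and 0.31 and 0.004 with 1390965_at. For Hnf4a the other probe sets changed by 0.10 ± 0.16 (1382496_at) and 0.18 ± 0.18 (1369289_at) where the one in use, 1392969_at, changed by -0.27, and their r with it was -0.09 and -0.32. For Ahr, 1369147_at changed by -0.19 ± 0.09 (adjusted p = 0.317) and had an r of -0.03 with the one in use. The difference between probe sets of a gene within each array was compared between 994.6 mg/kg and control by an exact two-sided permutation test over 56 splits, chosen after the values were seen. This exact test gave p = 0.0536 for 1 Nr5a2 probe set and 1 of Hnf4a, 0.0893 for the other of each and 0.214 for Ahr, with adjusted p-values over the 5 tests from 0.112 to 0.214; the smallest p possible is 0.0179. Which transcript stretch each probe set reads was not analysed here.

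**Figure D3:**
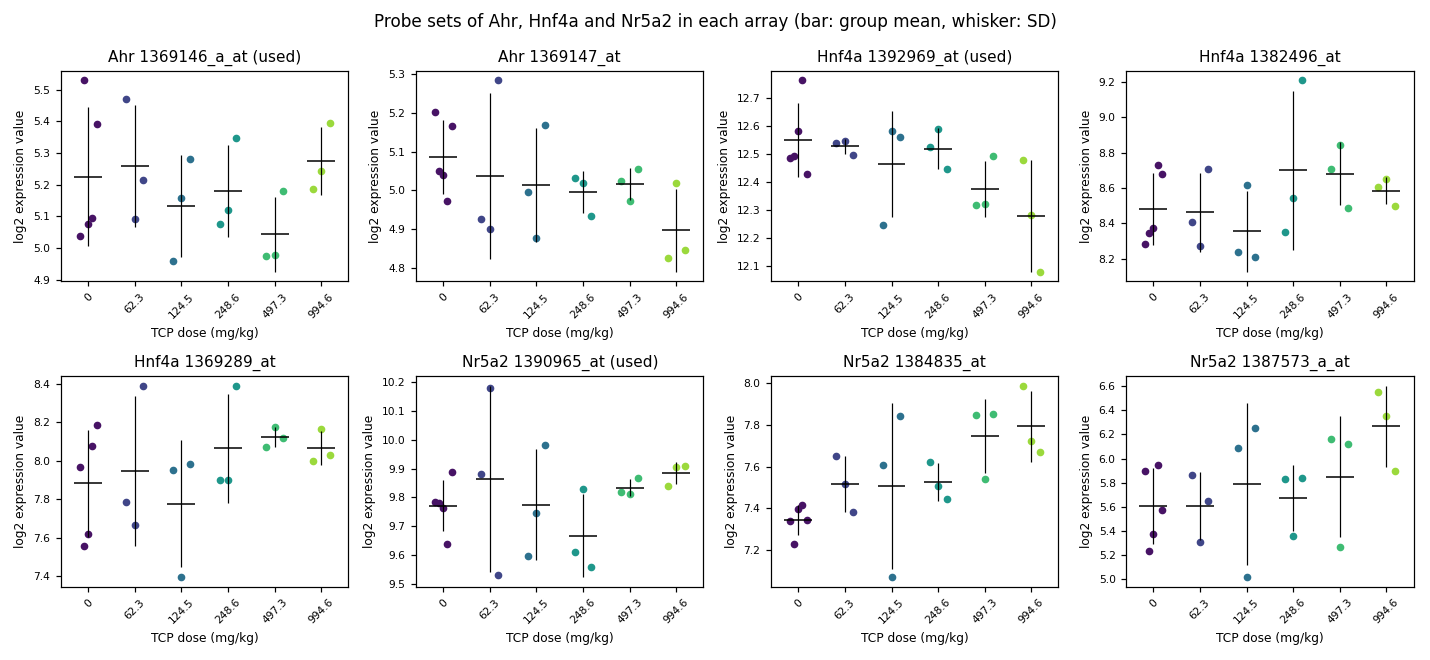
Log2 value of each probe set of Ahr, Hnf4a and Nr5a2 (vertical axis, scaled separately) in each array by TCP dose in mg/kg (0 is corn oil); points are arrays, bars group means and whiskers the SD (control n = 5, each dose n = 3). Nr5a2 1384835_at lies above all control arrays in every array of 248.6, 497.3 and 994.6 mg/kg, while the probe set used for the gene changed by 0.11 at 994.6 mg/kg.

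The receptors differed in how much they varied between rats of a group. The within-group SD, pooled over the 6 groups, was 0.867 for Nr0b2 and 0.387 for Nr1i3, at the 99.8 and 97.2 percentiles of all genes, against a median of 0.15 over all genes. Ppara (0.224), Nr1i2 (0.209), Nr1h4 (0.206), Ahr (0.172), Rxra (0.172) and Nr5a2 (0.161) were also above that median, and Hnf4a (0.134) and Nr1h3 (0.0929) below it. The SD of Nr0b2 ran from 0.30 in control to 1.59 at 994.6 mg/kg, where replicate 1 was the low array. The deviations of the receptors from their group means were then compared in 45 pairs over the 20 arrays, as a description, since these values share array, normalization and tissue piece. The median Pearson r was 0.094, with 3 pairs above 0.5 and 2 below -0.5. Ahr and Ppara deviated together (r = 0.71, Spearman rho = 0.66, r = 0.61 without the 2 arrays farthest from the median), and so did Nr1i2 and Nr1i3 (0.58, 0.59 and 0.47). Ahr and Ppara had the lowest means of the receptors (5.19 and 6.01), and the part of low signal in their r was not tested. The other Ahr probe set had an r of -0.03 with the one in use over the 20 arrays. Nr1i2 and Nr5a2 had an r of 0.64, which was 0.38 without the 2 farthest arrays, so that it rests partly on those. Nr1i2 and Nr1h4 deviated in opposite directions (r = -0.77, rho = -0.63, r = -0.63 without the 2 farthest), as did Nr1h4 and Nr5a2 (-0.57, -0.45 and -0.39). In both pairs with Nr5a2 its values are of 1390965_at alone. That probe set had an r of 0.31 and 0.004 with the gene's other probe sets over the 20 arrays.

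**Figure D4:**
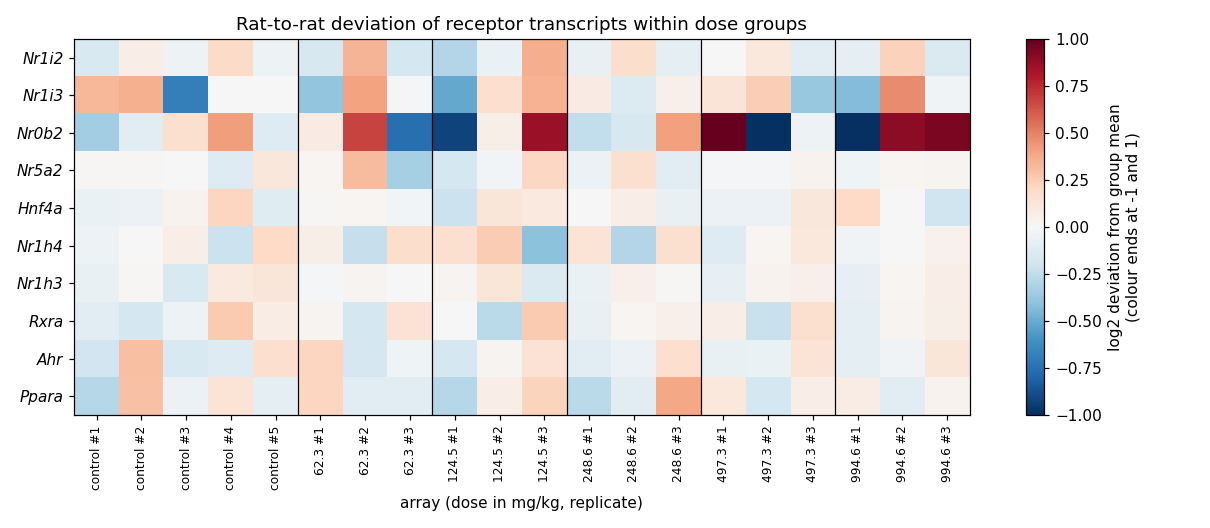
Deviation of each receptor transcript from its dose group mean on the log2 scale (colour, ends at -1 and 1) in each of the 20 arrays, ordered by dose in mg/kg and replicate. Nr0b2 has the strongest colours in both directions, and Nr1h3, with a within-group SD of 0.0929, the palest.

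For each receptor the 2 genes with the highest Pearson r over the 20 arrays were taken from all genes, so these values are a description. The closest to Nr1i2 was Cdkn1a, an inhibitor of the cell cycle (r = 0.92, Spearman rho = 0.93, 0.88 without the 2 arrays farthest from the median of Nr1i2, and 0.84 within groups), followed by Ptpdc1 (r = 0.88). Cdkn1a read between 10.16 and 11.49 in control and 9.45, 9.05 and 8.67 at 994.6 mg/kg, and its highest arrays, 12.10 in replicate 2 of 62.3 mg/kg and 12.05 in replicate 3 of 124.5 mg/kg, were also the 2 highest of Nr1i2. Rxra was closest to Zap70 (0.88) and Gpr162 (0.83), Nr1h4 to Spata7 (0.88) and Rabep1 (0.87), and Nr1h3 to Tfr2 (0.80) and Ints7 (0.77). Hnf4a was closest to Polr1g (0.81) and Foxn3 (0.81), Ppara to Filip1 (0.83) and H19 (0.74), and Ahr to Elfn2 (0.81) and Fgf17 (0.76). Nr1i3 had Pcp4l1 (0.82) and Chrdl1 (0.74), and Nr5a2 Bcl2l11 (0.78) and Spsb1 (0.75). Chrdl1 read only 3.16 to 3.51, Fgf17 4.53 to 4.98 and Filip1 5.35 to 5.83, all below the median of every array (6.31 to 6.41). For Nr0b2, Slc45a3 (0.77) and Fads2 (0.76) were closest, but these fell to 0.51 and 0.41 without the 2 farthest arrays.

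Genes that these receptors regulate were set beside them at 994.6 mg/kg, from lists of textbook targets. These lists were chosen with earlier results of these data known, so their counts are a description and no independent support. At this dose 2.5% of all genes were called higher and 1.96% lower, and in the target lists rose and fell mean called. Of 17 measured CAR and PXR targets 8 rose and 0 fell, and 16 of the 17 changes were positive. The list held 24 genes, and Cyp2b1 and Cyp2b2 were among those not measured here. It joins the targets of both receptors, so its counts do not tell CAR from PXR. Their median change was 0.58 against -0.01 over all genes, while neither receptor's own transcript rose. Among them were Ces2c, a carboxylesterase (2.92 ± 0.17, adjusted p = 7.33e-09), Abcc3, a pump for conjugates (2.86 ± 0.24, adjusted p = 2.15e-06), and Ugt2b1, a glucuronosyltransferase (1.25 ± 0.14, adjusted p = 4.54e-05). Cyp3a23-3a1, the textbook PXR target, rose by 0.90 ± 0.18 (adjusted p = 0.00716), with a change of 0.83 without replicate 1, where it was not called (adjusted p = 0.0579). Without that array 7 of the 17 were called, all higher. Of 7 AhR targets Nqo1, a quinone reductase that other stress pathways also induce, rose by 1.21 ± 0.22, and Cyp1a1, the defining target, changed by 0.91 ± 0.54 (adjusted p = 0.40).

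Of the 3 genes repressed through SHP, Cyp7a1 and Cyp8b1, both enzymes of bile acid synthesis, rose by 2.23 ± 0.32 and 0.69 ± 0.17 (adjusted p = 0.000474 and 0.0283). The third, Slc10a1, changed downward in limma, with an unadjusted p under 0.05, and was not called. Cyp7a1 and Cyp8b1 were both called without replicate 1 of 994.6 mg/kg, the array in which Nr0b2 was at 6.33. Cyp8b1 was not called without control replicate 1, 2 or 3 or without replicate 2 or 3 of 994.6 mg/kg. Of 8 FXR-induced genes 0 rose and 2 fell, Abcb4 and Pltp (-0.58 ± 0.13 and -0.47 ± 0.12), and without replicate 1 neither was called, at changes of -0.34 (adjusted p = 0.13) and -0.40 (adjusted p = 0.204). The call of Pltp was also lost without control replicate 1, 3, 4 or 5 or replicate 2 of 994.6 mg/kg. Of 12 LXR targets 3 fell, Abcg5 and Abcg8, which together form the sterol exporter (-2.34 ± 0.32 and -1.99 ± 0.23), and Pltp, with 0 higher; without replicate 1 Abcg5 and Abcg8 were called and Pltp was not. Of 24 PPAR-alpha targets 3 rose (Cyp4a8, Cd36 and Acot2) and 2 fell (Crat and Cyp4a1), and without replicate 1 only Acot2 of these 5 was called, while the others kept their direction at 1.06 (Cyp4a8), 0.65 (Cd36), -0.27 (Crat) and -0.28 (Cyp4a1), with adjusted p-values from 0.266 to 0.315. Each of these 5 calls also ended without other arrays, that of Acot2 without replicate 2 or 3 of 994.6 mg/kg. The median change was -0.02 over the AhR targets, -0.21 over the FXR-induced genes, 0.69 over the genes repressed through SHP, -0.07 over the LXR targets and 0.03 over the PPAR-alpha targets. Of 11 HNF4A targets limma called 0 (4.47% of all genes), with 0 at an unadjusted p under 0.05 (18.6% of all genes) and a median change of -0.02. The largest change among the HNF4A targets was that of Tat (0.68 ± 0.44, adjusted p = 0.449).

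**Figure D5:**
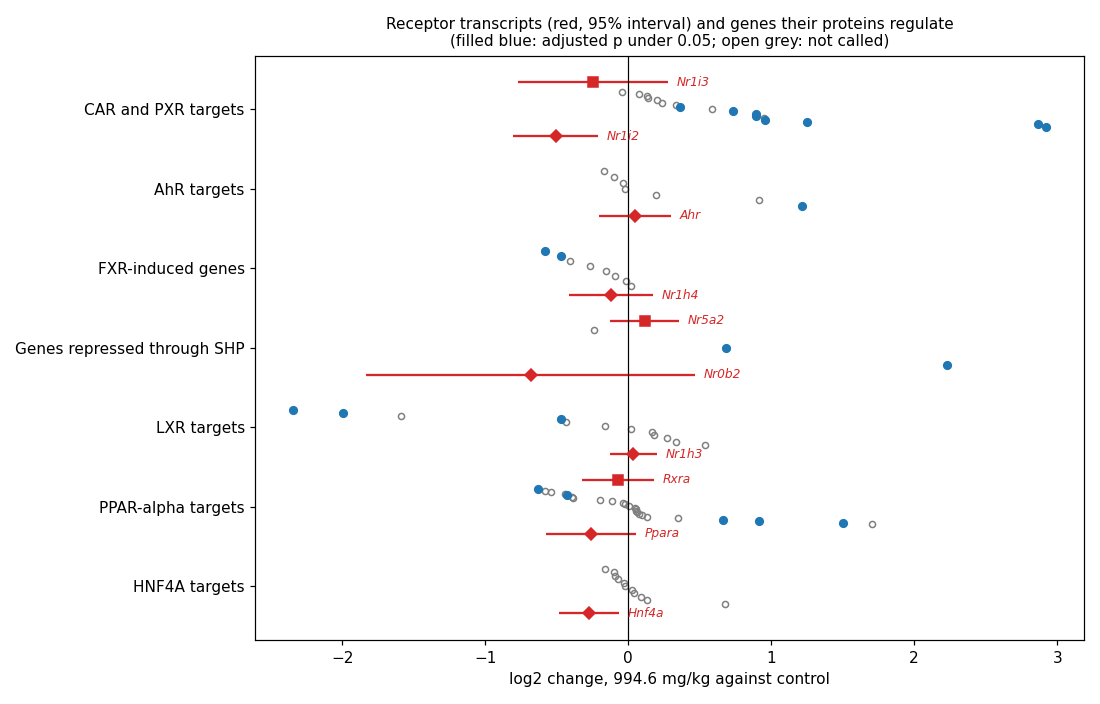
Log2 change at 994.6 mg/kg against control (horizontal axis) for the receptors (red, lines are 95% intervals; squares are Nr1i3, Nr5a2 and Rxra, set beside the list they bear on) and for genes of 7 target lists (filled blue: adjusted p under 0.05; open grey: not called). Of the CAR and PXR targets 8 of 17 are called, all to the right of 0, while Nr1i2 and Nr1i3 lie to the left.

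Other parts of the receptor machinery were set beside these 10 genes, in lists also chosen with earlier results of these data known. Of all genes, limma called 4.47% at 994.6 mg/kg (2.5% higher, 1.96% lower), and 18.6% had an unadjusted p under 0.05. The counts below stand against these shares. Of 27 other nuclear receptors and AhR partners, 2 rose and 1 fell at 994.6 mg/kg: Nr1d1 and Nr1d2, the REV-ERB repressors of the circadian clock, rose by 2.32 ± 0.35 and 1.40 ± 0.14 (adjusted p = 0.000734 and 2.79e-05), and Ppard fell by 0.52 (adjusted p = 0.017; 0.137 without replicate 1). Of 10 liver-enriched transcription factors Foxa3 fell by 0.86 (adjusted p = 0.00622; 0.0571 without replicate 1), and of 15 coregulators and 6 cytosolic chaperones 0 were called, with 3 and 3 at an unadjusted p under 0.05. The largest changes in these lists were those of Ppargc1b (-0.37 ± 0.14, adjusted p = 0.153) and Fkbp4 (-0.53 ± 0.17, adjusted p = 0.0735). Among cell type markers, 0 of 6 general hepatocyte markers were called at 994.6 mg/kg (3 at an unadjusted p under 0.05), and 1 of 6 pericentral (Slc1a2, higher), 1 of 6 periportal (Hal, lower), 1 of 5 cholangiocyte (Epcam, higher) and 1 of 9 stellate cell markers (Rgs5, higher). Hal and Rgs5 were not called without replicate 1 of 994.6 mg/kg. No marker of Kupffer cells (7), sinusoidal endothelial cells (5), T and NK cells (6), B cells (2) or neutrophils (4) was called, and of these 1 endothelial marker had an unadjusted p under 0.05.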

How the data were processed

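Liver RNA of 20 rats was hybridised to 1-colour Affymetrix expression arrays. The authors deposited RMA values on the log2 scale (per the submitters' processing notes; version and normalization batch not given). RMA equalizes array distributions, so changes are relative to most genes. The values run from 2.74 to 15.4; the number of arrays limits the precision. Of 31099 probe sets, 57 were controls, 20826 had 1 gene symbol in the platform annotation, 436 had several and 9780 were unnamed here. Where a gene had several probe sets, that of the highest mean stood for it, which left 14217 genes, with no filter on low values. limma 3.58.1 in R 4.3.3 fitted 1 mean per group to all 20 arrays (14 residual and 4.77 prior degrees of freedom) with default eBayes; adjusted p-values are Benjamini-Hochberg over all genes within a comparison, and errors of changes are standard errors. Each array is from a separate rat, per the labels. Besides each dose against control, neighbouring doses, all doses together and slopes on dose step were tested, and the fit was tested on simulated data. The members and all lists were chosen with earlier results of these data known. Named genes were the members, the 2 genes most like each, and, per list, up to 3 called members with the largest change or else the 1 with the largest change; Cyp3a23-3a1 and Cyp1a1 were added as defining targets. Alternatives covered the gene filter, choice of probe set, array scaling, options of eBayes, weights for arrays, a replicate block, arrays in the fit, RNA quality, dose scale, threshold and left-out arrays; leaving out 2 arrays together was added after seeing the data. Promoters come from RefSeq (GRCr8).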

Additional observations from a re-analysis of the deposited data

How the results depend on the processing

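Of the called results, the lower Nr1i2 at 994.6 mg/kg depended most on the processing: its change kept its direction under every alternative tried, from -0.31 with array weights to -0.62. The count of 1 receptor called at 994.6 mg/kg became 0 with every probe set as its own row, the replicate block, the GAPDH covariate, or without both replicate 1 of 994.6 mg/kg and replicate 2 of 124.5 mg/kg, and 3 with array weights (Nr1i2, Ppara and Hnf4a); it ran from 0 to 1 over left-out arrays. For the slope over all arrays the count of 1 became 2 without the lowest 50% of genes, with median centring and at an adjusted p under 0.1 (Nr1i2 and Hnf4a), 3 with array weights, and 0 with the GAPDH covariate, with log2(1 + dose) and without both arrays; it ran from 0 to 1 over left-out arrays. Array weights gave 1 call (Ppara) in the slope among treated arrays, where 0 were called. For the other probe sets, the count of 0 at 994.6 mg/kg became 1 without the lowest 50% of genes and at an adjusted p under 0.1, 2 with array weights, and 0 to 1 over left-out arrays. At 497.3 mg/kg it became 1 without both arrays. In the slope the count of 1 became 2 with array weights, 0 with the GAPDH covariate and with log2(1 + dose), and ran from 0 to 1 over left-out arrays. The cause was not tested.

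Changes at 994.6 mg/kg that turned sign were all of receptors not called. They were Nr1i3 (0.16 with array weights), Ahr (-0.0701 with the mean of probe sets, -0.0118 without replicate 3, and -0.0118 to 0.124 over left-out arrays), Nr1h3 (-0.00288 with quantile normalization, -0.00208 without control replicate 3, up to 0.0783 over left-out arrays), Rxra (0.0409 in the block), Hnf4a (0.00546 with the mean of probe sets) and Nr0b2 (0.14 with array weights, 0.24 without replicate 1 and without both arrays, and -1.15 to 0.24 over left-out arrays). Ppara, Nr1h4, Nr1i2 and the probe set used for Nr5a2 kept their direction. In the fit with the replicate block, without control replicates 4 and 5, Nr1i2 changed by -0.46 (adjusted p = 0.111). Same-numbered arrays deviated together little (mean r 0.036, 15 of 45 pairs over 0.1), so the numbers were not taken to pair the rats.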
